A study of Mus musculus with 8 samples.

Results

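Kidney cortex of young SAMP1 mice was compared with kidney cortex of young SAMR1 mice. The comparison took the 4 arrays of 10-week-old animals among the 8 arrays of the series, chosen by their sample titles, with 2 male SAMP1 mice (animals 4 and 5) and 2 male SAMR1 mice (animals 1 and 4). SAMP1 and SAMR1 are separate inbred lines of the senescence-accelerated mouse, SAMP1 prone to early senescence and SAMR1 resistant to it. No treatment, transgene or deletion is named for either line. The other 4 arrays hold 2 male mice of each strain at 50 weeks. The study's title concerns messenger RNA in renal impairment that comes with age, and the 10-week contrast gives the strain difference in the younger of its age groups. The lines are inbred separately, so the senescence trait and any other difference between them cannot be told apart. Each array is 1 mouse, and the labels do not say whether the mice shared litters or cages, so p-values measure the spread between these mice.

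As background, the senescence-accelerated lines were derived by selective breeding from mice of AKR/J descent. SAMP lines show early loss of coat condition, shortened lifespan and, depending on the line, amyloid deposits or organ-specific decline, while SAMR lines age more slowly. The kidney cortex holds the glomeruli and mostly proximal tubules, which take up filtered solutes and proteins, with smaller shares of distal tubule, collecting duct, vessels and resident immune cells. Genes that differ between inbred lines often lie near each other, since a line carries blocks of chromosome from its founders, and gene families such as the MHC and the Ly6 genes sit in clusters.

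Messenger RNA was read with a 1-colour Agilent mouse array of 60-base probes. Between 62.7% and 64.4% of the spots on a 10-week array cleared the scanner's background test, and no spot was saturated. Levels below are log2 of the processed signal minus the array's own 75th percentile, so a level of 0 lies at that percentile, and each level belongs to 1 probe. All 20 proximal tubule markers, 14 of 14 loop of Henle and distal tubule markers and 11 of 11 podocyte markers were well above background on all 4 arrays. Of 10 adrenal markers 5 (Cyp21a1, Hsd3b1, Pnmt, Star and Th) were above it on all 4 arrays and 5 (Cyp11a1, Cyp11b1, Cyp11b2, Dbh and Mc2r) on none. Levels correlated across genes at r = 0.995 between the SAMR1 arrays, 0.9957 between the SAMP1 arrays and 0.9854 to 0.9869 between the strains. Genes are not independent replicates, so these are descriptions. With 2 arrays a group, precision is limited by their number.

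The sequences shown here are of 2 kinds. The first 30 bases of the array probe are printed for 3 genes that carry the results, Fabp1 and Mep1a (lower in SAMP1) and Oas1a (higher), and then for 3 genes whose probes went opposite ways, with both probes of each. All are copied from the deposited array files, 5′ to 3′, with mm9 positions and the strand, and they carry no capitals because no motif is marked in them. The exon or UTR that each probe matches was not analysed here.
Fabp1, chr6:71154906-71154935, + strand: attgggcgacattgtctacaagagagtcag
Mep1a, chr17:43611314-43611343, - strand: cagcatggactttctttcttgctctggttt
Oas1a, chr5:121346765-121346794, - strand: tgtccacctgttggaaggttctgtctgaca
Spon1, brighter probe, chr7:121185714-121185743, + strand: ccatgccaatgtgttttatcagagggcaat
Spon1, other probe, chr7:121073331-121073360, + strand: atgatggacaaaatctccgaactgtaagca
Sh3rf1, brighter probe, chr8:63874464-63874493, + strand: catcagctttcatctgtgtgagtcgacacc
Sh3rf1, other probe, chr8:63865379-63865408, + strand: aacacagagatccttctgttcctccgtgtc
Slco1a6, brighter probe, chr6:142034737-142034766, - strand: ttattttcagaacttcagggtagcacttaa
Slco1a6, other probe, chr6:142115581-142115610, - strand: ttttattcacctagaacctgctgtgtccaa

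At 10 weeks 461 genes were higher and 324 lower in SAMP1 of 22239 tested, 785 in all (3.53%), by limma's moderated test at a Benjamini-Hochberg adjusted p under 0.05, which is called passing the test below. Of the genes tested, 2.07% passed as higher in SAMP1 and 1.46% as lower. In 426 of the 785 the difference was at least 2-fold, 246 upward and 180 downward, and the median size over the 785 was 1.07 on the log2 scale. The arrays of the strains did not overlap for any of the 785, and they did not overlap for 49.3% of all genes tested either. SAMR1 was not well above background on any 10-week array for 157 of all genes tested, and SAMP1 was not for 232. Such a gene entered the test only through the other strain. The filter therefore largely fixed its direction, and its p-value is no separate evidence for that direction. For 55 of the genes that passed, SAMR1 was not well above background on any 10-week array, and for 57 SAMP1 was not. The count fell to 378, 352, 323 and 342 without SAMR1 mouse 1, SAMR1 mouse 4, SAMP1 mouse 4 and SAMP1 mouse 5 in turn. With the level of Hba-a1, a haemoglobin gene that marks blood, as a covariate 175 genes passed. With so few mice that fit cannot separate blood content from strain with certainty.

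Most of the 15 genes furthest up in SAMP1 were not well above background on either SAMR1 array. For such genes the fold is a lower bound, and the p-value rests on background readings in 1 strain. The mean of the brighter strain was set against a floor for the dimmer one, the faintest level still called well above background on each array, or the probe's reading where that was brighter. Dydc2, a gene of the Dpy30 domain family, read -7.75 and -7.52 in SAMR1 (mice 1 and 4, in this order throughout) and 0.50 and 0.69 in SAMP1 (mice 4 and 5). It was at least 75.1-fold higher in SAMP1 (limma adjusted p = 5.03e-05). Gjb5, a connexin gene of gap junctions on chromosome 4, read -3.02 and -3.76 in SAMP1 and was at least 4.73-fold higher there (limma adjusted p = 0.00216).

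Gabra3, which encodes a subunit of the GABA-A receptor and lies on chromosome X, was at least 19.9-fold higher in SAMP1 (limma adjusted p = 3.15e-05), with both SAMP1 arrays at -1.31 to -1.33. Of 2 carboxylesterase genes on chromosome 8, enzymes that split esters in drugs and lipids, Ces1g read -4.36 and -3.89 in SAMR1 and 1.45 and 0.95 in SAMP1. Its difference was 5.33 ± 0.233 (limma adjusted p = 0.000192). Ces2h read -5.10 and -5.80 in SAMR1, where 1 of the arrays was well above background, and -0.55 and -0.82 in SAMP1, a difference of 4.76 ± 0.229 (limma adjusted p = 0.000227). Ces1d, another member of the family, differed by 0.79 ± 0.134 (limma adjusted p = 0.032), and this call was lost without any of 7 of the 8 arrays in turn, with an adjusted p of up to 0.18. Probes of carboxylesterase genes can pick up near-identical copies, so the split between members is uncertain.

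Nlrc4, an inflammasome sensor of bacterial proteins, was at least 13.4-fold higher in SAMP1, from -6.35 and -5.90 in SAMR1 to -1.88 and -1.90 (limma adjusted p = 0.000563). Gxylt2, a xylosyltransferase of Notch, read -4.57 and -4.72 in SAMR1 and -0.38 and 0.16 in SAMP1 (4.54 ± 0.187, limma adjusted p = 0.000151). The zinc finger gene Zfp971 and the elongin-related Elobl were at least 7.78-fold and at least 11.4-fold higher. Zfp951, another zinc finger gene, was higher by 4.20 ± 0.325 (limma adjusted p = 0.00152), and its 3 probes agreed. In Ifi27l2a, an interferon-inducible gene on chromosome 12, the SAMR1 mice stood apart from each other at -3.85 and -1.08 while the SAMP1 mice read 2.62 and 2.52. Its difference was 5.03 ± 0.8 (limma adjusted p = 0.0246), it ranged from 3.65 to 6.41 on leaving out 1 array, and its adjusted p then reached 0.134.

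**Figure D1:**
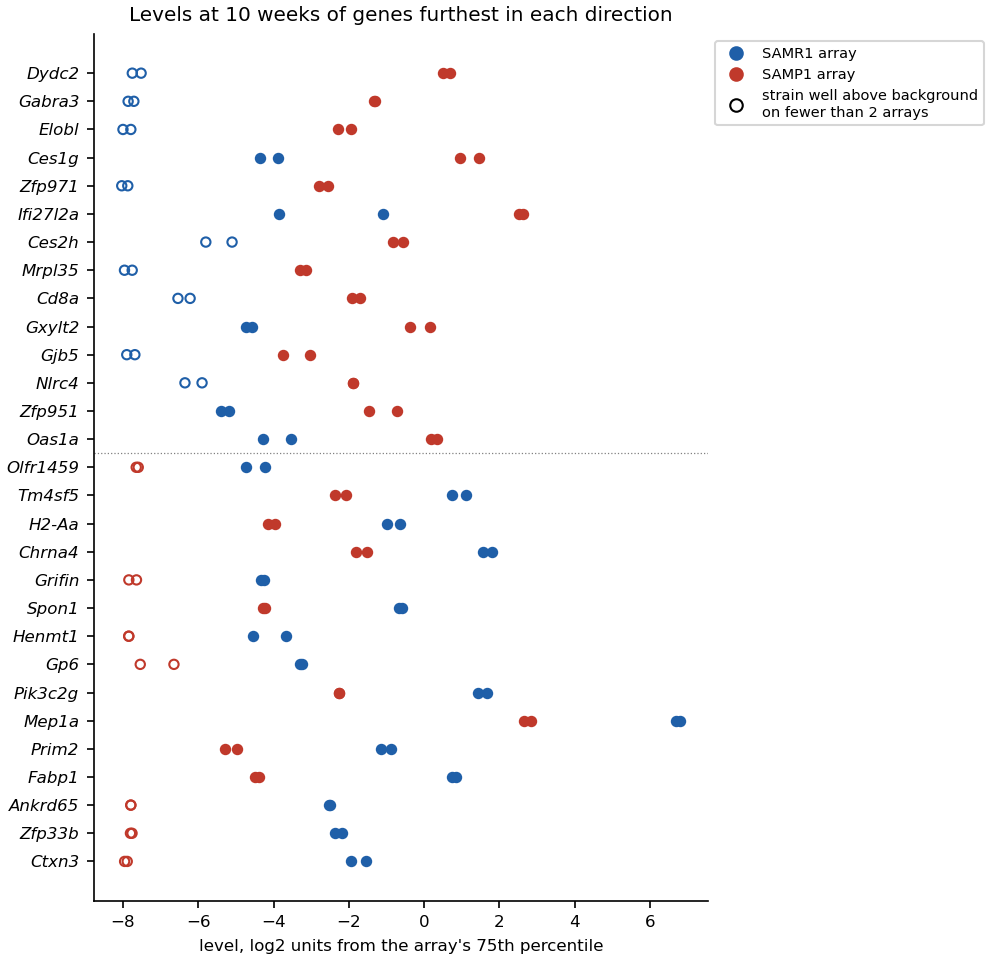
Level on each 10-week array (x axis, log2 units from the array's 75th percentile) of 14 of the 15 genes furthest up and the 15 furthest down in SAMP1 among named genes that passed the test; each point is 1 mouse, blue for SAMR1 and red for SAMP1, and open points mark a strain with fewer than 2 arrays well above background. The strains do not overlap for any of the 29 genes plotted, and Ifi27l2a shows the widest gap within a strain, -3.85 against -1.08 in SAMR1.

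Among the genes lower in SAMP1, Fabp1, the fatty acid binding protein of liver and proximal tubule, read 0.84 and 0.73 in SAMR1 and -4.38 and -4.50 in SAMP1. The difference of -5.22 ± 0.12, on the gene's 1 kept probe, is 37.3-fold (limma adjusted p = 2.27e-05). Mep1a, the alpha subunit of the brush border protease meprin, read 6.68 and 6.79 in SAMR1 and 2.66 and 2.84 in SAMP1, 15.9-fold lower (-3.99 ± 0.11, limma adjusted p = 3.19e-05). Pik3c2g, a class II phosphoinositide 3-kinase, fell from 1.66 and 1.43 in SAMR1 to -2.27 and -2.27 in SAMP1 (-3.81 ± 0.133, limma adjusted p = 6.65e-05), and all 5 of its probes were lower. Tm4sf5, a tetraspan membrane protein, read 1.12 and 0.75 against -2.06 and -2.36 (-3.14 ± 0.186, limma adjusted p = 0.000529).

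Ctxn3, which encodes the small membrane protein cortexin 3, read -1.94 and -1.55 in SAMR1 and was not well above background in SAMP1, at least 14.6-fold lower (limma adjusted p = 5.03e-05). Ankrd65, an ankyrin repeat gene, and the zinc finger gene Zfp33b were at least 8.61-fold and at least 10.1-fold lower. Chrna4, a nicotinic receptor subunit, read 1.81 and 1.56 in SAMR1 and -1.82 and -1.52 in SAMP1 (-3.36 ± 0.172, limma adjusted p = 0.000305). Gp6, the collagen receptor of platelets, was at least 5.05-fold lower. Henmt1, a methyltransferase of small RNAs, Grifin, a galectin-related lens gene, and the odorant receptor gene Olfr1459 were lower by at least 2.85-fold, 2.49-fold and 2.19-fold. The call for Henmt1 was lost without SAMP1 mouse 4 or mouse 5, with an adjusted p of up to 0.0549, while the other genes plotted, Ifi27l2a aside, passed on leaving out each of the 8 arrays in turn.

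Genes that interferon induces were the group with the most calls in 1 direction. The gene lists were chosen with earlier results of these data known, so their counts are descriptions. Interferons bind receptors on the cell surface, the signal reaches interferon-regulatory factors and STAT proteins, and these switch on genes whose products sense or degrade viral RNA, tag proteins or present antigen. Of 26 measured genes in the interferon list 16 were higher in SAMP1 and none was lower, beside 2.07% and 1.46% of all genes tested. The list's median difference was 1.01 on the log2 scale, beside 0.000236 over all genes tested, and 25 of the 26 differences were positive. Rsad2, which encodes viperin, was the exception at -0.26 ± 0.194 (limma adjusted p = 0.635). The summed signal of the list on the log2 scale was 4.43 and 4.40 in SAMR1 and 5.11 and 5.26 in SAMP1. Without SAMR1 mouse 1, SAMR1 mouse 4, SAMP1 mouse 4 or SAMP1 mouse 5 the number higher was 10, 10, 11 and 10, and it was 6 with Hba-a1 as a covariate. With that covariate 25 of the 26 differences were still positive and the median was 1.12.

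Oas1a and Oas2 make the oligoadenylates that activate RNase L. Oas1a read -4.28 and -3.55 in SAMR1 and 0.19 and 0.33 in SAMP1, 18-fold higher (4.17 ± 0.282, limma adjusted p = 0.000886). Oas2 read -5.71 and -4.80 in SAMR1, where 1 array was well above background, and -1.43 and -1.11 in SAMP1 (3.99 ± 0.388, limma adjusted p = 0.00393). Oas1f, between them on chromosome 5 and outside the list, differed by 2.74 ± 0.131 (limma adjusted p = 0.000227). The Oas genes are close copies of each other, and which copy a probe reads is uncertain.

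Irf7, a transcription factor of the interferon response, read -0.83 and -0.68 in SAMR1 and 1.59 and 1.61 in SAMP1 (2.35 ± 0.134, limma adjusted p = 0.000458). Ifit1, which binds foreign RNA, read -4.68 and -4.85 against -2.66 and -2.51 (2.18 ± 0.184, limma adjusted p = 0.00216). Isg15, a ubiquitin-like protein, read -0.94 and -0.99 in SAMR1 and 0.53 and 0.55 in SAMP1 (1.50 ± 0.105, limma adjusted p = 0.00096). Usp18, which removes Isg15 from proteins, read -3.72 and -3.51 against -1.72 and -1.78 (1.86 ± 0.105, limma adjusted p = 0.000449). In each of these genes the mice of a strain lay close together and the strains far apart, and all 4 passed on leaving out each array in turn. Iigp1, an immunity-related GTPase, differed by 2.42 ± 0.32 (limma adjusted p = 0.0127), with SAMP1 mice at -1.34 and -0.39. That call was lost without either SAMR1 mouse (adjusted p up to 0.0865), and the gene's other probe differed by -0.11. Of the 16 members that passed, 9 lay in a stretch of chromosome with at least 3 genes past the test, described below, and 7 did not.

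**Figure D2:**
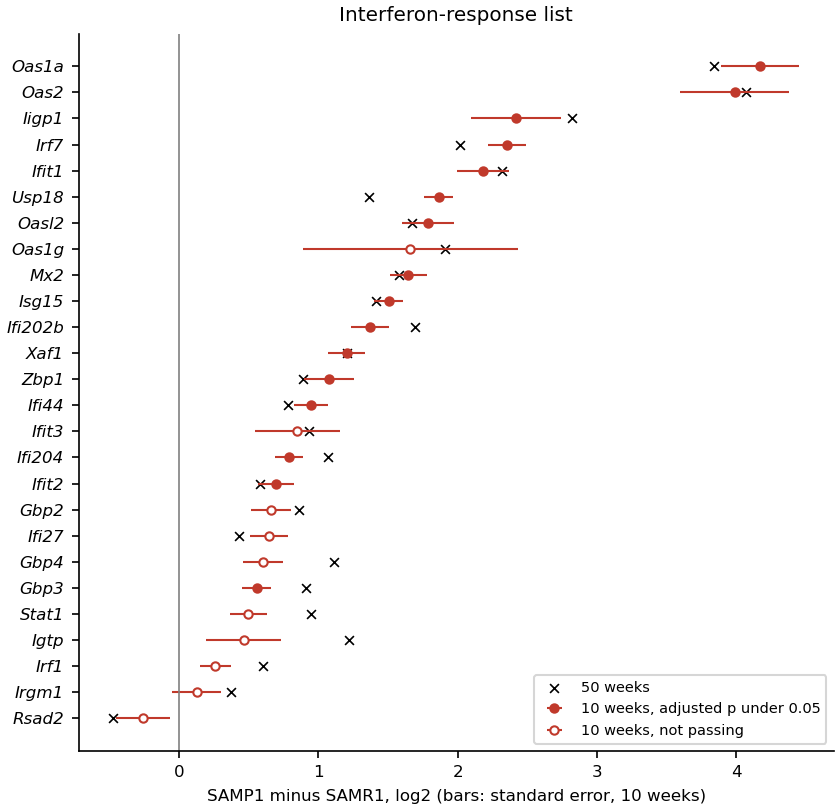
Strain difference (x axis, SAMP1 minus SAMR1, log2) of the 26 measured interferon-list genes at 10 weeks, as circles with the limma standard error, filled where the test was passed; crosses give the 50-week difference. At 10 weeks 25 of the 26 circles lie above 0, from Oas1a at 4.17 to Rsad2 at -0.26.

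The promoters of these genes were searched for GAAANNGAAA, the core of the element that interferon-regulatory factors bind, on both strands. RefSeq promoter sequences of GRCm38.p6, 300 bases each from 250 before to 50 after the gene start, were at hand for 10 of the 16 genes that passed. The letters occurred in 4 of the 10 (Oas1a, Isg15, Ifit1 and Gbp3), and in 6 of the 7 list members with a promoter that did not pass. Of all 27025 symbols with a promoter there, 1079 (3.99%) had a match, among 302 genes higher in SAMP1 with an entry 25 (8.28%), and among 189 lower genes 7 (3.7%). A match is a description of the letters only. The lines below are read along the gene's strand, 5′ to 3′, the capitals mark the match, and where the capitals read TTTCNNTTTC the match is on the opposite strand. Some matches in a promoter overlap, and the first is shown.
Oas1a, chr5:120907526-120907555, - strand: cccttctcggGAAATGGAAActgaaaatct
Isg15, chr4:156200877-156200906, - strand: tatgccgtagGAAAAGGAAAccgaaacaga
Ifit1, chr19:34640775-34640804, + strand: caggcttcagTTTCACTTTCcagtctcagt
Gbp3, chr3:142559989-142560018, + strand: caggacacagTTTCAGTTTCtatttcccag
Gbp3, a guanylate-binding protein named here for its motif after its values were seen, differed by 0.56 ± 0.104 (limma adjusted p = 0.0436), a call lost without each of the 8 arrays in turn, with an adjusted p of up to 0.236.

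Genes of the major histocompatibility complex (MHC) on chromosome 17 formed the run with the most differing genes. A run here is at least 3 genes past the test, each probe starting within 1 Mb of the next. It starts and ends at such a gene, so the share that passed within any run is raised by this definition and tests nothing. This run spanned chr17:34056240-36302361 (mm9), 2.25 Mb, and 29 of its 147 tested genes passed (19.7%, beside 3.53% of all genes), 17 higher and 12 lower in SAMP1. MHC class I molecules display peptides from inside the cell and class II molecules display peptides taken up from outside. Of 21 measured class I and antigen-processing genes 7 were higher and 4 lower, beside 2.07% and 1.46% of all genes tested, with a median difference of 0.35. Of 8 class II genes 2 were higher and 1 lower.

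H2-Aa, the alpha chain of the class II molecule I-A, read -0.63 and -0.99 in SAMR1 and -4.14 and -3.97 in SAMP1, 9.5-fold lower (-3.25 ± 0.16, limma adjusted p = 0.000254). H2-Ea, the alpha chain of I-E, went the other way, not well above background in SAMR1 and at -3.95 and -3.41 in SAMP1, at least 3.87-fold higher (limma adjusted p = 0.00239). H2-DMb1, which helps load class II peptides, was higher by 1.23 ± 0.138 (limma adjusted p = 0.00651; 0.054 without SAMR1 mouse 1). Cd74, the invariant chain, lies on chromosome 18 and was higher by 0.71 ± 0.116 (limma adjusted p = 0.0269), a call lost without any of 6 arrays in turn, with an adjusted p of up to 0.143.

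The classical class I genes H2-D1 and H2-K1 were lower in SAMP1. H2-D1 read 2.23 and 2.17 in SAMR1 and -0.62 and -0.44 in SAMP1 (-2.73 ± 0.116, limma adjusted p = 0.000166). H2-K1 read 5.47 and 5.59 against 3.95 and 4.38 (-1.36 ± 0.159, limma adjusted p = 0.00752; 0.0621 without SAMR1 mouse 4), but its other probe differed by 0.35. H2-Q5 was lower by 2.53 on the log2 scale (difference -2.53 ± 0.186), while H2-T24 (1.27 ± 0.117) and H2-L (0.99 ± 0.0849) were higher, the second with another probe at 0.09. Psmb8, a subunit of the immunoproteasome, was higher by 1.01 ± 0.123 (limma adjusted p = 0.00895; up to 0.0668 without 1 array). H2 genes are near-identical copies that vary between mouse lines, so each probe's value is uncertain as a measure of 1 gene.

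**Figure D3:**
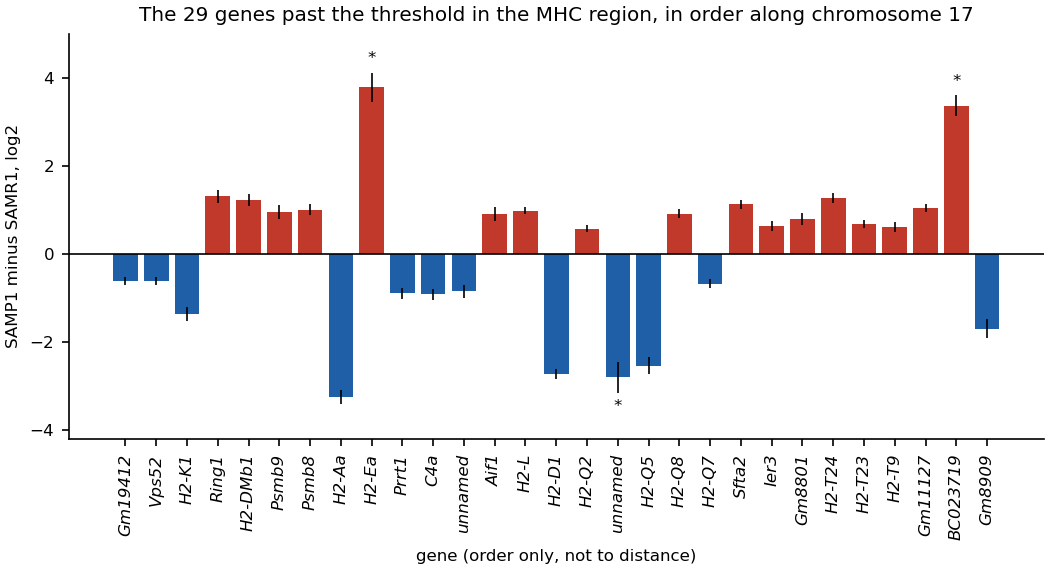
Strain difference at 10 weeks (y axis, SAMP1 minus SAMR1, log2, bars with the limma standard error) of the 29 genes past the test in the MHC run, in their order along chromosome 17; red bars are higher and blue bars lower in SAMP1, and an asterisk marks genes not well above background in 1 strain. Of the 29, 17 bars point up and 12 down, with H2-Ea (up) and H2-Aa (down) side by side.

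Genes past the test were often close to each other elsewhere too. Of the 778 with a mapped probe, 560 (72%) had another such gene within 1 Mb, beside 45.7% of all tested genes with a mapped probe. There were 74 runs of at least 3, holding 436 genes (56%), and 15 runs of at least 8, holding 184 genes. Both directions occurred in 56 of the 74 runs and 18 ran 1 way. By chromosome the share of tested genes that passed was highest on 8 (5.88%), 6 (5.67%) and 17 (5.47%) and lowest, among chromosomes with a gene that passed, on X (1.65%).

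On chromosome 4 a run of 18 genes spanned chr4:132557111-138300486. It held the predicted gene Gm3579, at -7.06 and -7.69 in SAMR1 and 6.87 and 6.61 in SAMP1, at least 5318-fold higher and the largest difference among genes that passed (limma adjusted p = 0.000359). At 50 weeks both SAMR1 mice were above background for it, at -1.27 and -3.88. In the same run Fgr, a Src-family kinase of myeloid cells, was at least 5.78-fold higher, and Myom3, a muscle protein of the M band, was lower (0.18 and 0.22 against -2.01 and -1.95, difference -2.18 ± 0.157, limma adjusted p = 0.00113). The call for Fgr was lost without SAMR1 mouse 1 or either SAMP1 mouse, with an adjusted p of up to 0.0702. Further along, a run of 13 genes at chr4:153690234-155573708 held Prxl2b, a prostamide synthase gene, at 2.39 and 2.40 in SAMR1 and 5.22 and 5.13 in SAMP1 (2.78 ± 0.0866, limma adjusted p = 5.03e-05), and Ankrd65 and Isg15. In another run on the chromosome, of 12 genes, Agmat, which splits agmatine, was higher by 1.67 ± 0.119 (limma adjusted p = 0.0011).

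Chromosome 6 held 3 of the 15 longest runs. In a run of 13 genes, Arntl2, a partner of the clock protein CLOCK, was higher (-2.50 and -2.32 against 0.57 and 0.53, 2.96 ± 0.176, limma adjusted p = 0.000529) and Mansc4, a membrane protein gene, lower (0.27 and -0.13 against -3.23 and -2.62, -3.00 ± 0.288, limma adjusted p = 0.0037). In a run of 10 genes, Pparg, the nuclear receptor of fat cell formation and lipid storage, read 0.49 and 0.80 in SAMR1 and -1.37 and -1.61 in SAMP1 (-2.14 ± 0.138, limma adjusted p = 0.000741). Cand2 nearby was higher by 2.58 ± 0.309 (limma adjusted p = 0.00847), a call lost without either SAMP1 mouse (up to 0.0649). The run of Fabp1 held 8 genes at chr6:71078597-72556715, among them Ggcx, the vitamin K-dependent carboxylase (-2.49 ± 0.139), and Thnsl2 (-1.99 ± 0.131) on the lower side. Cd8a (at least 14.1-fold), Mrpl35, a mitochondrial ribosomal protein (at least 5.3-fold), and Retsat, a retinol saturase (1.11 ± 0.0889), were on the higher side.

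Some runs were gene families that moved 1 way. The Ly6 cluster on chromosome 15, small surface proteins of immune and other cells, held a run with 8 of 11 tested genes past the test, all higher in SAMP1. Ly6e read 1.83 and 2.07 in SAMR1 and 5.10 and 4.69 in SAMP1 (2.95 ± 0.179, limma adjusted p = 0.000574). Ly6g read -2.27 and -2.47 against 0.17 and -0.08 (2.42 ± 0.169, limma adjusted p = 0.000988), and Ly6f was at least 3.39-fold higher. Ly6a, Ly6c1 and Ly6c2 differed by 0.90 to 0.93, and their calls were lost without 3 of the 4 10-week arrays in turn, with an adjusted p of up to 0.125. The call for Ly6f was lost without SAMP1 mouse 5 (0.0525).

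On chromosome 12 the antitrypsin genes Serpina1a, Serpina1b, Serpina1c, Serpina1d and Serpina1e, inhibitors of leukocyte elastase, were each higher by 1.89 to 2.07. Serpina1a read 0.46 and 0.50 in SAMR1 and 2.37 and 2.56 in SAMP1 (1.98 ± 0.325, limma adjusted p = 0.0273). All 5 lost their call without any of the 4 10-week arrays in turn, with an adjusted p of up to 0.214 and a difference of at least 1.83, and they are near-identical copies that a probe cannot separate with certainty. Serpina3g was higher (1.63 ± 0.282) and Serpina3a lower (-0.88 ± 0.156) in the same run, and both calls were lost without any of 7 arrays in turn (adjusted p up to 0.199). Ifi27l2a lies in this run.

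Aldh1a1 and Aldh1a7, retinaldehyde dehydrogenase family genes on chromosome 19, were lower by similar amounts (-1.70 ± 0.138 and -1.80 ± 0.165, limma adjusted p = 0.00188 and 0.00299). Among the aldo-keto reductases of chromosome 13, which act on steroids and other carbonyls, Akr1c21 read 6.99 and 6.80 in SAMR1 and 5.23 and 5.35 in SAMP1 (-1.60 ± 0.109, limma adjusted p = 0.000902). Akr1c6 (-1.77 ± 0.127) and Akr1c19 (-1.15 ± 0.152) were lower as well and Akr1c14 (1.03 ± 0.17) higher. Akr1c19 lost its call without 2 of the 8 arrays in turn and Akr1c14 without 7, with an adjusted p of up to 0.141. Apol9a (1.89 ± 0.112) and Apol9b (3.36 ± 0.306), apolipoprotein L genes of chromosome 15, were higher, and so were Ifi209 (at least 3.16-fold), Ifi204 (0.79 ± 0.1) and Ifi202b (1.37 ± 0.138), sensors of nucleic acid on chromosome 1. Ifi204 lost its call without each 10-week array in turn and Ifi209 without 2 of them, with an adjusted p of up to 0.088. Next to each other on chromosome 5, the guanylate-binding genes Gbp6 (1.90 ± 0.298), Gbp8 (3.09 ± 0.493) and Gbp11 (at least 8.67-fold) were higher, with an adjusted p of up to 0.146 on leaving out 1 array, and Zfp33b was lower beside Zfp951, which was higher.

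Of 33 measured genes of cytochrome P450 and other xenobiotic metabolism 2 were higher and 3 lower, beside 2.07% and 1.46% of all genes, with a median of -0.01. Cyp27b1, the enzyme of the proximal tubule that makes active vitamin D, read 0.26 and 0.28 in SAMR1 and -1.22 and -1.45 in SAMP1 (-1.60 ± 0.236, limma adjusted p = 0.0189; up to 0.122 without 1 array). Cyp2a4 and Cyp2a5, coumarin and steroid hydroxylases, were lower by similar amounts (-1.01 ± 0.107 and -0.89 ± 0.0845), and Sult1c2, a sulfotransferase, was higher (1.07 ± 0.111, limma adjusted p = 0.00471). Ces1d was the other higher gene. Of 26 genes of glutathione and oxidative stress 4 were higher and 0 lower, beside the same shares of all genes, with a median of 0.09. These were the glutathione transferases Gstm2 (1.33 ± 0.117, limma adjusted p = 0.00262), Gstm1 (1.01 ± 0.133), Gstm6 (0.70 ± 0.11) and Mgst1 (0.69 ± 0.0983). The brighter Gstm1 probe is mapped to chromosome 5. The other Gstm1 probe, mapped to chromosome 3 as Gstm6 is, differed by 0.37 (limma adjusted p = 0.2 over all kept probes), so the Gstm1 value is uncertain. Gstm1 lost its call without 3 of the 4 10-week arrays in turn and Gstm6 and Mgst1 without each of the 4, with an adjusted p of up to 0.15.

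Of 24 genes of fatty acid oxidation and binding 1 was higher and 1 lower, beside 2.07% and 1.46% of all genes tested. The lower one was Fabp1. The list's median was 0.02. Of 23 genes of cholesterol and lipid synthesis 2 were higher and none lower, beside the same shares of all genes, with a median of 0.26. Sqle, an enzyme of cholesterol synthesis, was higher by 1.18 ± 0.136, and its call was lost without SAMR1 mouse 1 or SAMP1 mouse 4, with an adjusted p of up to 0.056. None of 24 respiratory chain genes passed, and 1 had a nominal p under 0.05, beside 3278 of all 22239 genes tested.

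Of 19 androgen-responsive kidney genes 3 were lower and none higher, beside 1.46% and 2.07% of all genes tested. These were the organic anion carriers Slco1a1 (-0.98 ± 0.145) and Slc22a28 (-0.53 ± 0.1) and the amino acid transporter Slc7a12 (-0.96 ± 0.166). The call for Slco1a1 was lost without 3 of the 8 arrays in turn, that for Slc22a28 without each of the 8 and that for Slc7a12 without 7, with an adjusted p of up to 0.124, 0.258 and 0.159. Slc22a8, the organic anion transporter OAT3 of the proximal tubule, was the 1 gene of 20 proximal tubule markers to pass (0.56 ± 0.0922, limma adjusted p = 0.0282; up to 0.176 without 1 array). The medians of these lists were -0.12 and -0.04. Of 15 renin-angiotensin and blood pressure genes 1 was higher and none lower, beside 2.07% and 1.46% of all genes tested, with a median of 0.20.

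None of the 14 loop of Henle and distal tubule, 10 principal cell, 11 intercalated cell, 11 podocyte, 12 endothelial or 14 fibroblast, mesangial and smooth muscle markers passed the test with limma. Nominal p-values under 0.05 were counted for 3, 1, 3, 1, 1 and 2 of them, beside 3278 of all 22239 genes tested. Likewise 0 of 18 tubular injury genes, 0 of 16 genes of senescence and its secretory phenotype, 0 of 24 matrix and fibrosis genes, 0 of 17 clock genes and 0 of 18 genes of ageing and the klotho axis passed. Their nominal counts were 2, 6, 3, 4 and 1, beside the same 3278 of all 22239 genes tested. The senescence list holds 21 genes, and Cdkn2a, Il6, Il1a, Cxcl2 and Mmp3 were not among the genes tested. Klotho (Kl), the antiageing co-receptor of the distal tubule, differed by -0.43 with a limma adjusted p of 0.187, and Arntl, the core clock gene, by -1.31 with 0.136. These counts take the brightest probe of each gene. The other Arntl probes differed by -1.55 and -1.51, with limma adjusted p-values of 0.245 and 0.0159 over all kept probes. The last of these passed on its own, so Arntl was lower with every kept probe. The other Kl probe differed by -0.13. The list members named although they did not pass were chosen after their values were seen. Beside the counts that follow, 2.07% of all genes tested were higher in SAMP1 and 1.46% lower. Of 24 cell cycle genes 2 were lower, Ccnb1 (-0.74 ± 0.101) and Cenpf (-0.96 ± 0.147), the first call lost without each of the 4 10-week arrays in turn and the second without 3 of them (adjusted p up to 0.123), and the list's median was -0.31. Chac1, which degrades glutathione under stress, was the 1 gene of 21 heat shock and unfolded protein response genes to pass (-1.23 ± 0.169, limma adjusted p = 0.0147; up to 0.101 without 1 array), and that list's median was -0.27. Of 16 immediate early genes Ier3, which lies in the MHC run, was the 1 to pass (0.64 ± 0.113, limma adjusted p = 0.0352), a call lost without each of the 8 arrays in turn (up to 0.187).

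Markers of immune cells were read as well, since a difference in cell content would enter whole-tissue RNA, and fewer cells of a type and less RNA per cell cannot be told apart. Of the 15 T and NK cell markers 9 were well above background on all 4 arrays and Gzmb on none. Of 13 tested 3 were higher and none lower, beside 2.07% and 1.46% of all genes, 12 of the 13 differences were positive and the median was 0.54. Cd8a, the alpha chain of CD8, read -6.22 and -6.54 in SAMR1, not well above background, and -1.93 and -1.71 in SAMP1 (limma adjusted p = 0.00175), with a second probe also higher. Its partner chain Cd8b1 differed by 0.84 (limma adjusted p = 0.197). The T cell receptor chains Cd3e, Cd3d and Cd3g differed by 0.12, 0.72 and 1.36 and the adhesion gene Cd2 by 0.54, with limma adjusted p-values of 0.661, 0.404, 0.421 and 0.547. Il2rb, a cytokine receptor chain, and Nkg7, a granule protein, were higher by 1.87 ± 0.294 and 1.21 ± 0.192, both lost without 3 of the 4 10-week arrays in turn (adjusted p up to 0.138). The summed signal of the T and NK list was 1.54 and 1.42 in SAMR1 and 1.82 and 1.94 in SAMP1.

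Macrophage and dendritic cell markers were well above background on all 4 arrays for 13 of 15. Of the 15, 4 were higher and none lower, beside 2.07% and 1.46% of all genes, with a median of 0.73. These were Cd68 (0.55 ± 0.0875), a lysosomal protein, the complement genes C1qb (0.85 ± 0.14) and C1qc (0.92 ± 0.172), and Aif1 (0.91 ± 0.158), an actin-binding protein. All 4 lie in runs on chromosomes 4, 11 and 17, and all 4 lost their call without each of the 10-week arrays in turn, with an adjusted p of up to 0.221. The summed signal of the list was 5.16 and 5.26 in SAMR1 and 5.50 and 5.41 in SAMP1. Among 19 complement genes C1qb and C1qc were higher and C4a lower (-0.91 ± 0.126, limma adjusted p = 0.0147; up to 0.105), while the proteases C1ra, C1s1 and C1s2 differed by 0.25, 0.28 and 0.16 without passing. Ly6g was the 1 neutrophil marker of 5 to pass, and 4 of the 9 in that list (Cxcr2, Ltf, Ngp and Retnlg) were above background on no 10-week array. Blk and Cd79a of the 12 B and plasma cell markers were likewise at background. None of 7 tested B and plasma cell markers passed with limma, 2 with a nominal p under 0.05, beside 3278 of all 22239 genes tested. The part of immune cell content in the interferon and MHC differences was not tested.

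Haemoglobin genes, a sign of blood in the sample, varied widely. Hba-a1 read 7.21 and 7.87 in SAMR1 and 3.18 and 5.59 in SAMP1, a difference of -3.16 ± 1.12 that did not pass (limma adjusted p = 0.258), and Hba-a2 and Alas2, the erythroid enzyme of haem synthesis, differed by -3.17 ± 1.12 and -2.87 ± 1.11. Of 9 red cell genes none passed with limma, and the median was -2.69. A nominal p under 0.05 was seen for 6 of them, beside 3278 of all 22239 genes tested. The summed signal of the list was 8.46 and 9.05 in SAMR1 and 4.85 and 6.94 in SAMP1. At 50 weeks the Hba-a1 difference was 4.33, the other way. The part of blood content in the strain differences was not tested. The fit with Hba-a1 as a covariate cannot separate blood content from strain, since the Hba-a1 level itself differed between the strains and the covariate lowers the precision.

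Where a gene had several probes, they often gave different answers. Of the 785 genes, 257 had more than 1 probe well above background, and in 108 of these (42%) another probe had the opposite sign or under 0.5 times the size with a nominal p over 0.05. In 9 genes the opposite probe passed the test on its own. Of the 785 genes, 528 had 1 kept probe, Fabp1 and Mep1a among them, so no other probe could be set beside it. Sequence variants between the lines under the probes were not looked up, and their part in the differences was not tested. The values in this paragraph come from the fit over all 34789 probes kept. The result for Sh3rf1 on leaving out arrays is the exception and comes from fits on the brightest probe of each gene. The brighter Spon1 probe, for spondin 1 of the extracellular matrix, read -0.59 and -0.66 in SAMR1 and -4.21 and -4.28 in SAMP1 (-3.62 ± 0.304), while the other probe was below the faintest level well above background in SAMR1 and read -3.62 and -3.50 in SAMP1 (limma adjusted p = 0.0433), which gives a direction but no exact size. Sh3rf1, a scaffold of JNK signalling, showed -1.80 ± 0.228 with the brighter probe, a call lost without each 10-week array in turn (up to 0.0796), and 3.94 ± 0.174 (limma adjusted p = 0.000185) with the other. For Slco1a6, an organic anion carrier, the brighter probe fell from 5.53 and 5.75 to 3.04 and 3.17 (-2.53 ± 0.119) and the other rose from -2.63 and -2.30 to -0.91 and -0.81 (1.60 ± 0.259, limma adjusted p = 0.0275). H2-Bl, a class I gene, showed -1.18 ± 0.127 and 1.60 ± 0.169. Ppfibp1, a liprin, showed 1.46, -0.75 and 0.63 over 3 probes. In Prim2, the large primase subunit, the brighter probe differed by -4.12 ± 0.255 and the other by 0.09 ± 0.176 (limma adjusted p = 0.882), so a difference was seen with 1 of its probes. By contrast Pik3c2g kept its direction over 5 probes, Zfp951 over 3 and Cd8a over 2.

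**Figure D4:**
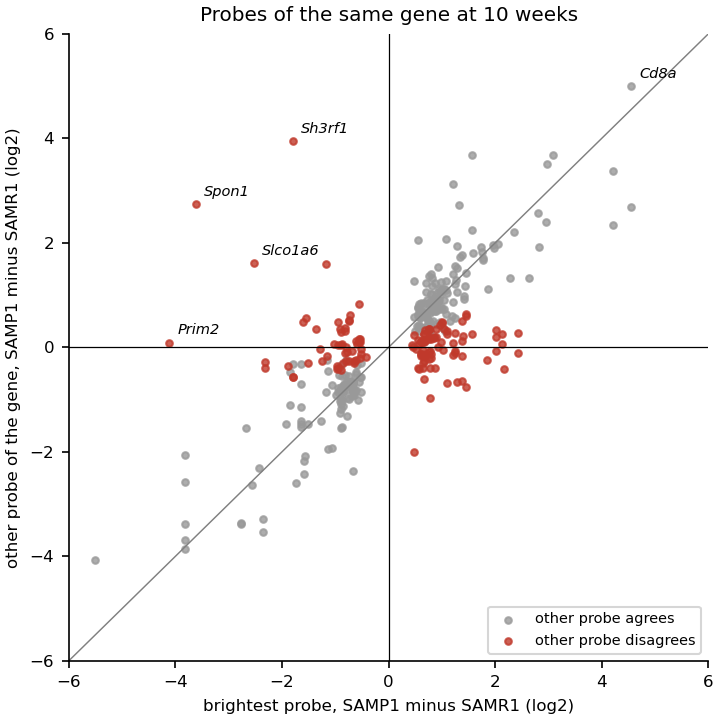
Strain difference at 10 weeks of the brightest probe (x axis) against each other probe of the same gene (y axis), both SAMP1 minus SAMR1 in log2, for the 257 genes with several probes; the grey line marks equal values and red points the probes that disagree. Spon1, Sh3rf1 and Slco1a6 lie in the upper left, with a brighter probe below 0 and another above 0, and for Spon1 the height is only a fitted value because the other probe was at background in SAMR1. Pdgfd, with its brightest probe at -1.06 and its other at -6.56, falls outside the axes drawn.

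The strain difference was present at the older age for most of these genes. Of the 785, 771 had the same sign at 50 weeks and 14 the opposite one, and 623 also passed at 50 weeks in the same direction. These are 79.4% of the 10-week genes and 50.6% of the 1231 that passed at 50 weeks (5.54% of those tested). The ages share no mice, but they share the fit's estimate of spread. Fabp1 was at -5.54, Mep1a at -3.83 and Oas1a at 3.84 at 50 weeks. Of the interferon list 19 genes were higher at 50 weeks and none lower, with a median of 1.16.

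No gene passed the test of the age by strain interaction, the difference between the strain differences, in the limma fit. 1405 genes had a nominal p under 0.05, among them 144 of the 785, and 11 genes passed with normexp background correction and 11 with an intensity trend in the spread. The smallest adjusted p was 0.0845, for Ctxn3, whose SAMP1 arrays were not well above background at either age, so that its change with age in SAMP1 was not measured. Slc7a12 was the 1 gene that passed at both ages with opposite signs, -0.96 at 10 weeks and 1.49 at 50 weeks (interaction 2.45, limma adjusted p = 0.137). Car3, a carbonic anhydrase near it on chromosome 3, read -2.24 and -1.92 in SAMR1 and -0.01 and 0.41 in SAMP1 at 10 weeks (2.28 ± 0.2, limma adjusted p = 0.00258) and differed by -0.05 at 50 weeks (interaction adjusted p = 0.332). Ces1g differed by 5.33 and 7.34 at the 2 ages. Since no interaction passed, a difference between the ages is not shown for any of these genes.

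**Figure D5:**
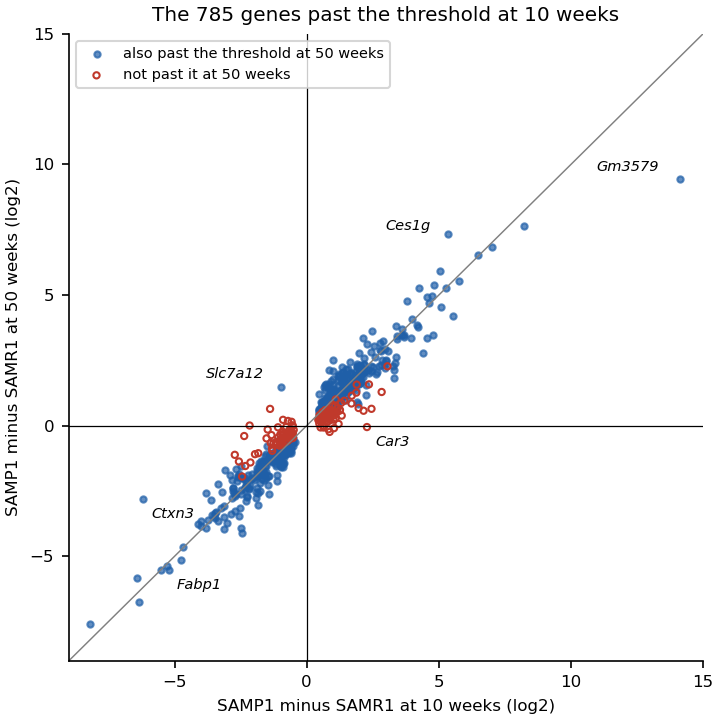
Strain difference (SAMP1 minus SAMR1, log2) at 10 weeks (x axis) and at 50 weeks (y axis) for the 785 genes past the test at 10 weeks; filled points also passed at 50 weeks, open points did not, and the grey line marks equal values. Most points lie along the line, and Slc7a12 is the filled point with opposite signs, at -0.96 and 1.49.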

How the data were processed

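The deposited files hold an intensity for each spot. The submitters' processing notes name Agilent Feature Extraction, version 12.0.3.1. Per the file headers it subtracted background, removed spatial and multiplicative trends and marked outliers and spots well above background. The authors also deposited a log2 value table, whose making is not given in the sources used here. It tracked the scanner's log2 values centred per probe on the median of the 8 arrays (r = 0.99896 to 0.99929 per array, column medians -0.048 to 0.0591), and it served as an alternative. Per the file headers, coordinates are mm9. All arrays lay on 1 slide.

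Spots of 56605 probes that were not controls were scaled to the array's 75th percentile, outlier spots were dropped (106 to 161 per 10-week array), and spots of a probe averaged. A probe was kept if both 10-week arrays of either strain were well above background. The brightest of the 34789 kept probes stood for each of 22239 genes, and 35405 probes were matched by accession to GRCm38.p6 names. One fit with limma 3.58.1 in R 4.3.3 held all 8 arrays, a coefficient per group, 2-sided tests and Benjamini-Hochberg adjustment per contrast; it was tested on simulated data.

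Named genes were the 15 furthest in each direction, up to 8 per run of neighbours, up to 6 per list, up to 8 with disagreeing probes, and others said to be chosen later; some of these genes are not reported here. Members and lists were chosen with earlier results of these data known.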

Additional observations from a re-analysis of the deposited data

How the results depend on the processing

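The count of 785 genes at 10 weeks stayed within 1.5 times itself under normexp background correction, quantile normalization, scaling over detected probes, the authors' value table, each filter on dim probes, a fit of the 10-week arrays alone, other uses of several probes, an intensity trend and slide row or column as a block. It was 175 with Hba-a1 as a covariate and 323 to 700 without 1 array. At 50 weeks (1231) it was 817 with no filter, 96 with the covariate and 594 to 1006 without 1 array. The interaction (0) gave 11 genes with normexp, 1 with no filter, 2 with a filter over all 4 groups, 11 with an intensity trend, 1 with slide row as a block and 0 without any 1 array. With the mean of all probes Sh3rf1 turned to 1.07 and H2-Bl to 0.21. With the covariate Alas2 turned to 0.23 and Cd3e to -0.0066. Without 1 array Cd2 ranged from -0.0055 to 1.085, the lowest without SAMP1 mouse 5. The cause of these shifts was not tested, beyond that fewer arrays leave fewer degrees of freedom. Of 116 genes that passed and were checked singly, 66 passed without each array in turn. No paired analysis was possible because the 10-week groups share only replicate number 4. Of the same 116 genes, 31 lost their call in the fit of the 10-week arrays alone and 30 with no filter on dim probes. Signal near background limits the genes given as bounds.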
